A study of Homo sapiens with 118 samples.

Results

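The transcripts of 9 efflux and sterol transporters of the ATP-binding cassette (ABC) family were followed in HepaRG cells exposed to 8 histone deacetylase inhibitors. The members were chosen by name as ABCB1, ABCG2, ABCC1, ABCC5, ABCC6, ABCA1, ABCG1, ABCG5 and ABCG8, and every row of the count table whose symbol equals one of them was taken. They make up 9 of the 19470 symbols and 13 of the 22068 probes with a value in every library. ABCG2 has 4 probes, ABCC6 has 2, and each of the others has 1. Probes are named as deposited, with a number after the symbol.

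HepaRG is an established human liver cell line that can be differentiated into hepatocyte-like cells. Differentiated cells received 1 chemical at 1 of 5 concentrations, C1 (lowest) to C5 (highest), renewed each day over 72 hours, and lysates were read with TempO-Seq, in which a pair of detector oligos is ligated on its target transcript and sequenced. The labels give C1 and C5 in µM as 0.0417 and 0.86 for apicidin, 0.177 and 3.9 for mocetinostat, 0.00147 and 0.084 for panobinostat and, with scriptaid, 4.94 and 94.5. They give 1.14 and 44 for tacedinaline, 0.0188 and 1.52 for trichostatin A and 0.405 and 23.5 for vorinostat. The unit of the valproic acid doses, labelled 100.478 to 3038, is open, since the treatment protocol lists lower numbers with that unit. Replicates 1, 2 and 3 of every group came from 3 batches of 1 cell line. There were 118 libraries in 40 groups, 38 with 3 libraries, whereas panobinostat C3 and trichostatin A C4 had 2. Solvent controls were not used here. C1 of the same chemical was the reference, so a change shared by all 5 concentrations cannot be seen. Scriptaid, tacedinaline and vorinostat carry the plate label E and the other 5 chemicals H, and all groups of a chemical share 1 label. Concentrations were not matched between chemicals, and their values are given side by side.

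ABC transporters are membrane proteins that use ATP to move substrates across membranes. ABCB1 (P-glycoprotein), ABCG2 (breast cancer resistance protein), ABCC1 and ABCC5 export drugs, drug conjugates or cyclic nucleotides, and changes in their abundance are studied as a cause of drug resistance. ABCA1 loads cholesterol and phospholipid onto apolipoprotein A-I, ABCG1 passes cholesterol to high-density lipoprotein, and ABCG5 and ABCG8 pair into the pump that secretes sterols into bile. ABCC6 is found mainly in liver and supports ATP release, and its loss causes pseudoxanthoma elasticum. ABCA1, ABCG1, ABCG5 and ABCG8 are known targets of the liver X receptors. Histone deacetylases remove acetyl groups from histones and other proteins, and the inhibitors used here block them.

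ABCG5 and ABCG8 lie head to head, and the window upstream of one reaches into the other, so this stretch is shown for the pair that fell together. The windows of ABCA1 and ABCC6 are shown for the other members that fell in the same chemicals, and the downstream promoter of ABCB1 for a member that mostly did not. The sequences are from RefSeq on GRCh38.p14, 250 bases before and 50 after an annotated start, and 7 of the 9 members matched. Capitals mark, on either strand, 4 motifs, which are the GATA motif with the letters AGATAA, the GC box with the letters GGGCGG, the CCAAT box with those 5 letters and the TATA box with the letters TATAAA.
ABCG8, chr2:43838721-43839020, plus strand: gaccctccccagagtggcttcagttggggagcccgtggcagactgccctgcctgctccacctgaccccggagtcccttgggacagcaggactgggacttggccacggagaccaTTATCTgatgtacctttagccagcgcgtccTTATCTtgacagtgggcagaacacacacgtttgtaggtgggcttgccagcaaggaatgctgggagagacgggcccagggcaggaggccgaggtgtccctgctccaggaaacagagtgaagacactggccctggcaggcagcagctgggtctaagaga
ABCA1, chr9:104928106-104928405, minus strand: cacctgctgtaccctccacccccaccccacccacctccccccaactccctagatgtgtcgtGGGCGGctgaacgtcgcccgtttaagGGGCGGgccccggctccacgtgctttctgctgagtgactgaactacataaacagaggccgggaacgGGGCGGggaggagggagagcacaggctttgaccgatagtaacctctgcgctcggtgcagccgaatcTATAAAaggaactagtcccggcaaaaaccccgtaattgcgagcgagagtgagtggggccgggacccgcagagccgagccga
ABCC6, chr16:16223445-16223744, minus strand: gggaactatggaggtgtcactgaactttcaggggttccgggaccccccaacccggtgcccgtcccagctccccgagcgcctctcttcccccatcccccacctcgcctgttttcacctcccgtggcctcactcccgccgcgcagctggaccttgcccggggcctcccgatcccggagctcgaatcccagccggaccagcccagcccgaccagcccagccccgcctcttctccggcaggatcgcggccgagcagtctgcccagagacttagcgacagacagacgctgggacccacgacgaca
ABCB1, chr7:87600835-87601134, minus strand: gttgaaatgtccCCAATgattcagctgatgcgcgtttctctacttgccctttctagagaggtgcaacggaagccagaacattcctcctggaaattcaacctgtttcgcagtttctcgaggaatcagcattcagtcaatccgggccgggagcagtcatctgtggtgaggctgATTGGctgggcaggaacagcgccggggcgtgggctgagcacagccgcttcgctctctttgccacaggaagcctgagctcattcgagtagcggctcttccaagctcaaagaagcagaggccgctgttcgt
There were 131 bases between the ABCG8 start and the ABCG5 start used for its window, and the ABCG5 gene as annotated reaches past both. Of the GATA motifs, 1 lies between these starts while the other begins at the ABCG5 start. Of all 35116 windows, 10.3% held a GATA motif, 45.0% a GC box, 34.6% a CCAAT box and 11.5% a TATA box. ABCA1 held 3 GC boxes and 1 TATA box, ABCB1 held 2 CCAAT boxes, and the ABCC6 window held none of the 4 motifs. The motifs did not overlap each other in these windows. They describe letters in a window and say nothing of which factors bound there.

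Total counts per library ran from 1061359 to 5250260, with a median of 3702007. In 9 of 118 libraries the mean correlation with the other libraries of the group was under 0.9, against a median of 0.956. They were all 3 libraries of scriptaid C4, mocetinostat C2 replicates 1 and 3, mocetinostat C3 and apicidin C4 replicate 1, valproic acid C4 replicate 3 and trichostatin A C1 replicate 3. The last of these touches every trichostatin A comparison. Levels are given as CPM, counts scaled to a common library size with TMM factors, and they are compared only within a probe, since probes differ in efficiency. A change was called where edgeR's quasi-likelihood test of 1 chemical gave an adjusted p under 0.05 and the fitted levels differed by 1.5-fold or more. A probe was at the floor in a group if none of its libraries had more than 3 counts. Whether the libraries of C1 and a higher concentration overlapped was looked at for the members only. How many of all probes were apart in this way was not counted.

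At C5 the sterol pump genes ABCG5 and ABCG8, the cholesterol exporter ABCA1 and the liver transporter ABCC6 fell with 7 of the 8 chemicals, and none of these was called for trichostatin A. The drug pumps ABCB1 and ABCG2 fell with fewer chemicals. ABCC1 and ABCC5 were called with none. Over the 8 chemicals, 81 tests of member probes at C5 gave 40 calls, of which all were falls and 0 were rises, while 0% (trichostatin A), 4.84% (valproic acid), 6.77% (panobinostat), 12.8% (scriptaid), 13.8% (apicidin), 14.8% (mocetinostat), 18.7% (tacedinaline) and 22.7% (vorinostat) of all probes tested were called rising. The sterol genes gave 21 falls in 24 tests, ABCC6 gave 14 in 16, and ABCB1, ABCG2, ABCC1 and ABCC5 together gave 5 in 41.

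**Figure D1:**
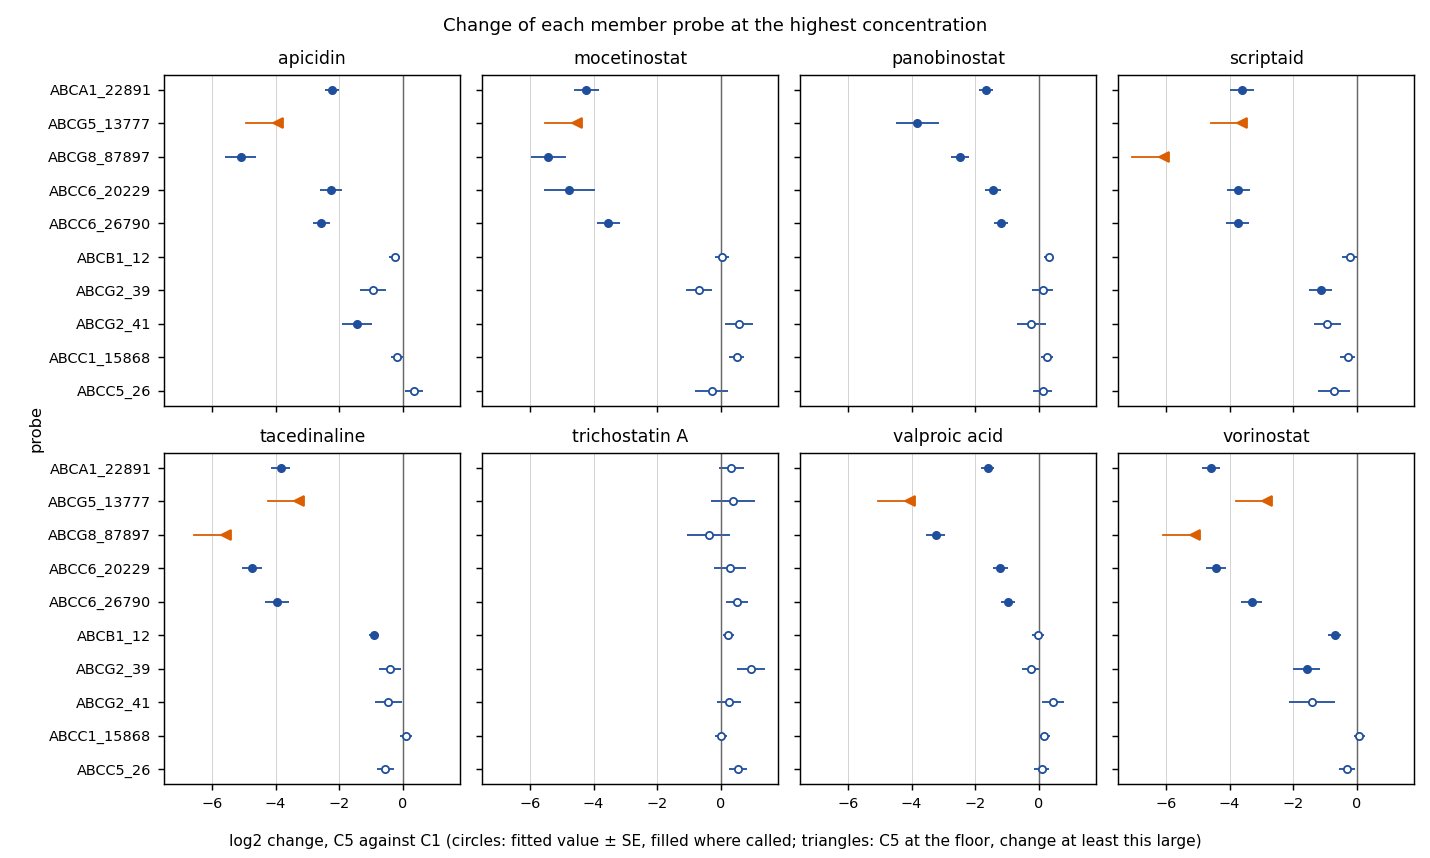
Log2 change at C5 against C1 for 10 member probes (rows) in 8 chemicals (panels). Circles are fitted values with their SE, filled where called, and triangles mark the smallest change that the counts allow where C5 lay at the floor. The upper 5 rows lie left of zero in 7 panels, and the trichostatin A panel holds no filled point.

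For apicidin, 6 of 10 probes tested fell, where 15% of all probes tested were called falling. For mocetinostat 5 of 10 fell against 15.7%, and for panobinostat 5 of 10 against 9.46%. These members are few and were picked by name, so the shares are descriptions. Scriptaid gave 6 of 11 against 17%, tacedinaline 6 of 10 against 20.1%, valproic acid 5 of 10 against 6.22% and vorinostat 7 of 10 against 24.9%. Trichostatin A gave 0 of 10 in edgeR and 0 in DESeq2, with 1 at an unadjusted p under 0.05, where 0.0154% of all probes were called falling. The median log2 change of the tested member probes at C5 was -2.44 for vorinostat, -2.37 for tacedinaline, -2.11 for mocetinostat and -1.82 for apicidin. It was -1.13 for scriptaid and -0.71 for panobinostat, and valproic acid gave -0.61. Trichostatin A gave 0.31. Using the bound in place of the fitted value where C5 lay at the floor changed the median to -2.08 for tacedinaline and -2.19 for vorinostat. The medians over all probes tested lay between -0.0018 and 0.08.

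ABCA1 is the transporter that starts the transfer of cell cholesterol to lipid-poor apolipoprotein. In vorinostat its level was 145, 166 and 131 CPM at C1 and 2.45, 6.59 and 7.08 CPM at C5. The lowest of these C5 values stands on 3 counts. The groups did not overlap, and the log2 change was -4.58 ± 0.29 (SE, n = 3 and 3; edgeR quasi-likelihood test, adjusted p = 6.14e-15). In tacedinaline the libraries went from 109, 142 and 109 CPM at C1 to 1.98, 14.7 and 5.70 CPM at C5, a change of -3.84 ± 0.31 on the log2 scale. The lowest of those C5 values stands on 4 counts. In mocetinostat they went from 194, 164 and 208 to 15.7, 5.13 and 7.27 CPM, with a log2 change of -4.23 ± 0.40. The mean at C5 was 3.64% of that at C1 in vorinostat, 6.22% in tacedinaline and 4.97% in mocetinostat. Scriptaid took it from 114, 119 and 177 CPM to 13.4, 13.3 and 4.29 CPM, a log2 change of -3.62 ± 0.38.

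The falls of ABCA1 were smaller in the other 3 chemicals in which it was called. Apicidin C5 libraries stood at 34.0, 23.2 and 39.1 CPM against 169, 128 and 152 CPM at C1, a log2 change of -2.21 ± 0.22. Panobinostat C5 libraries stood at 55.5, 40.3 and 38.9 CPM against 171, 135 and 116 CPM, a log2 change of -1.66 ± 0.22. Valproic acid C5 libraries stood at 45.8, 56.0 and 40.9 CPM against 142, 125 and 171 CPM, a log2 change of -1.61 ± 0.21. In each of these the highest C5 library lay below the lowest C1 library. The change at C5 was unequal among those 7 chemicals over the ranges used (adjusted p = 9.02e-10, edgeR quasi-likelihood test in a model of all 118 libraries, which called 21.4% of all probes, and 30.3% with trichostatin A included). That test compares the ranges used and not equal doses, and it runs across both plates. Among the 3 plate E chemicals the ABCA1 change was not called unequal (adjusted p = 0.577, where 3.29% of all probes were called), and among the 4 plate H chemicals other than trichostatin A it was (4.22e-06, where 12.9% were), in the same edgeR quasi-likelihood model.

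In trichostatin A, ABCA1 stood at 166, 138 and 28.7 CPM at C1 and at 178, 82.3 and 158 CPM at C5. The third C1 library is the one that correlated poorly with its group, and without it the log2 change went from 0.34 ± 0.39 to -0.12, neither of them called. At C2, C3 and C4 the trichostatin A libraries held 164 to 204 CPM.

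ABCG8 was called at C3 in 6 of the 7 chemicals and at C4 in panobinostat. In scriptaid and valproic acid at C3, and in panobinostat at C4, it was the single member called, and whether its change was larger than those of the other members there was not tested. Apicidin C3 libraries held 3.65, 11.2 and 4.98 CPM against 87.6, 51.0 and 74.6 CPM at C1, a log2 change of -3.42 ± 0.44 (adjusted p = 1.41e-05, edgeR quasi-likelihood test). Mocetinostat C3 libraries held 4.09, 3.35 and 2.71 CPM against 80.2, 53.0 and 84.0 CPM, a log2 change of -4.38 ± 0.51. Both drops came at the third of 5 concentrations, and neither pair of groups overlapped. At C5 the level was at the floor in scriptaid, tacedinaline and vorinostat, with 0 to 3 counts per library, against 71 to 290 counts at C1. These were falls of at least 67.6-fold in scriptaid, at least 47.6-fold in tacedinaline and at least 34.2-fold in vorinostat, with the floor of 3 counts set for each library.

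Valproic acid and panobinostat left more ABCG8 transcript. Valproic acid C5 libraries held 7.59, 9.48 and 6.77 CPM against 68.3, 57.1 and 102 CPM at C1, a log2 change of -3.24 ± 0.30. Panobinostat C5 libraries held 13.7, 15.3 and 11.0 CPM against 81.8, 74.2 and 63.2 CPM, a log2 change of -2.47 ± 0.29. The groups were apart in both. In trichostatin A the C1 libraries held 85.0, 90.3 and 0.299 CPM and the C5 libraries 43.5, 28.4 and 63.0 CPM. The log2 change was -0.37 ± 0.67, and it was -0.96 (adjusted p = 0.056, edgeR quasi-likelihood test) without the third C1 library. With replicate 3 left out of all trichostatin A groups it was -1.27 with an adjusted p of 0.0092, the only member call made in that setting.

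ABCG5, the obligate partner of ABCG8, was read at 4.31 to 23.4 CPM in the 23 C1 libraries other than trichostatin A replicate 3. That one held 0 counts. At C5 it lay at the floor in apicidin, mocetinostat, scriptaid, tacedinaline, valproic acid and vorinostat, and no library of these groups held more than 3 counts. The falls were at least 22.9-fold in mocetinostat, 16.6-fold in valproic acid, 15.2-fold in apicidin and 12.1-fold in scriptaid. They were at least 9.51-fold in tacedinaline and 6.99-fold in vorinostat. In panobinostat the C5 libraries held 3, 4 and 1 counts against 59, 32 and 35 counts at C1, a log2 change of -3.82 ± 0.67 (adjusted p = 0.00031, edgeR quasi-likelihood test).

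ABCG5 reached the floor at C3 with mocetinostat, which left 3, 1 and 0 counts, and with tacedinaline, which left 0 counts in all 3 libraries. In trichostatin A it held 70, 14 and 0 counts at C1 and 45, 21 and 29 counts at C5, and the groups overlapped. Among the 7 other chemicals its C5 change was not called unequal (adjusted p = 0.405, edgeR quasi-likelihood test), but most of those changes stop at the floor. For ABCG8 the same test gave an adjusted p of 1.45e-05, with an adjusted p of 1 among the plate E and of 0.0036 among the plate H chemicals. ABCG8 lay at the floor at C5 in scriptaid, tacedinaline and vorinostat, which are all of plate E. The plate E test could therefore not show whether its falls were equal.

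**Figure D2:**
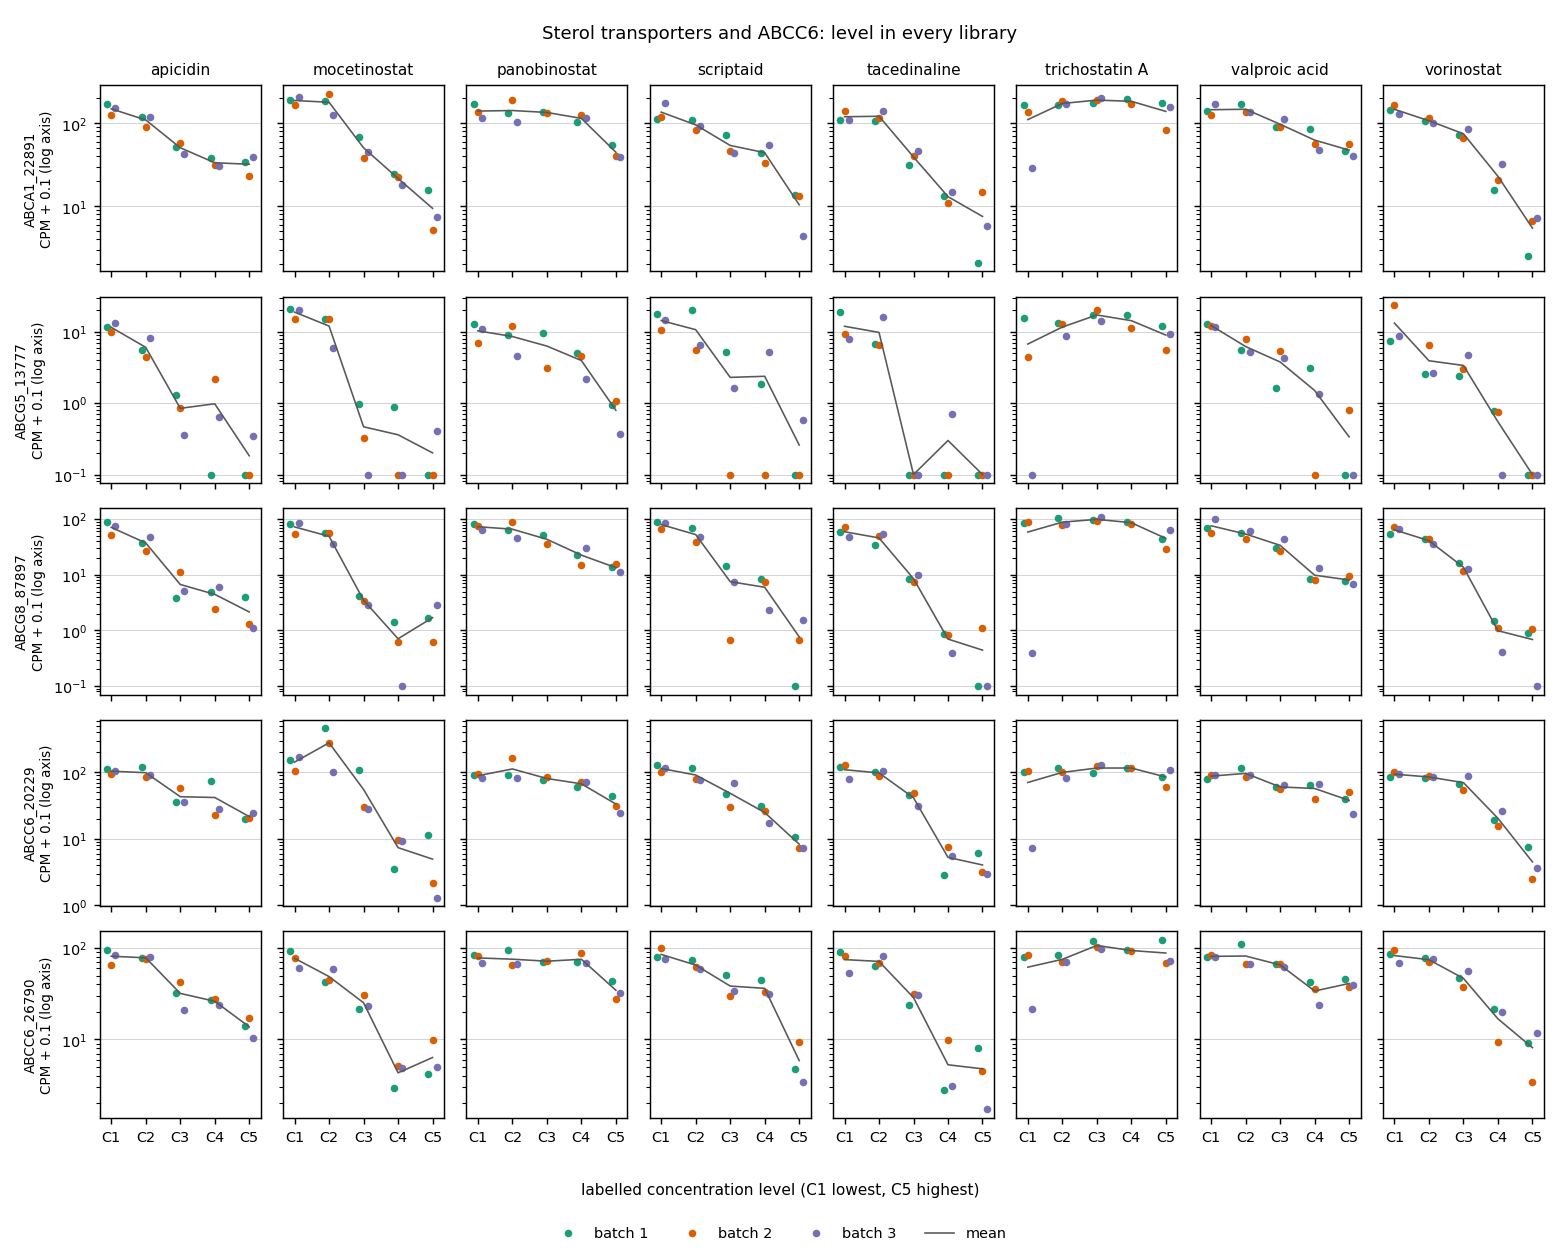
Level of the ABCA1, ABCG5, ABCG8 and ABCC6 probes (rows) in each of the 118 libraries, by concentration level (x axis) and chemical (columns), as CPM + 0.1 on a log axis. Points are coloured by HepaRG batch and the line joins group means. Levels drop from C3 on in most panels, trichostatin A C1 of batch 3 sits far below its group mates, and ABCC6_20229 lies above C1 at mocetinostat C2 in batches 1 and 2.

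ABCC6 was read by both of its probes, and both fell with the same 7 chemicals. In vorinostat ABCC6_20229 went from 84.9, 102 and 95.7 CPM to 7.35, 2.35 and 3.54 CPM, and ABCC6_26790 from 86.1, 94.5 and 67.8 CPM to 8.98, 3.30 and 11.8 CPM. The log2 changes were -4.42 ± 0.33 and -3.31 ± 0.34. Tacedinaline gave -4.75 ± 0.32 and -3.94 ± 0.38, mocetinostat -4.76 ± 0.79 and -3.53 ± 0.36, and scriptaid -3.73 ± 0.36 and -3.75 ± 0.36. No C5 library of these 4 chemicals reached the C1 range of its probe. Apicidin gave -2.26 ± 0.34 and -2.56 ± 0.27, panobinostat -1.43 ± 0.25 and -1.20 ± 0.22, and valproic acid -1.20 ± 0.24 and -0.98 ± 0.22. The valproic acid calls were the least firm of these, since the adjusted p (edgeR quasi-likelihood test) rose to 0.074 for ABCC6_20229 without replicate 1 and to 0.088 for ABCC6_26790 without replicate 2.

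The 2 ABCC6 probes read apart at mocetinostat C2, where replicates 1 and 3 are among the 9 libraries of low correlation. ABCC6_20229 stood there at 462, 276 and 100 CPM, against 156, 104 and 170 CPM at C1. ABCC6_26790 stood at 42.4, 45.2 and 58.4 CPM, all below its C1 libraries at 93.6, 78.2 and 60.1 CPM. Neither change was called. Over all 118 libraries the Pearson correlation of the log2 CPM of both probes was 0.899. Their log2 ratio, with a median of 0.29, lay more than 1 away from that median in 14 libraries, and 6 of these were among the 9 of low correlation. It was 3.43 in mocetinostat C2 replicate 1 and 2.29 in mocetinostat C3 replicate 1. For ABCG2_39 and ABCG2_41 the ratio lay as far from its median in 15 libraries, 3 of them of low correlation. Whether what sets those libraries apart also moved the probes was not tested. Near-identical pseudogene copies of ABCC6 exist, and where on the transcript either probe binds is not given in the sources used here, so reads from those copies cannot be told apart.

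**Figure D3:**
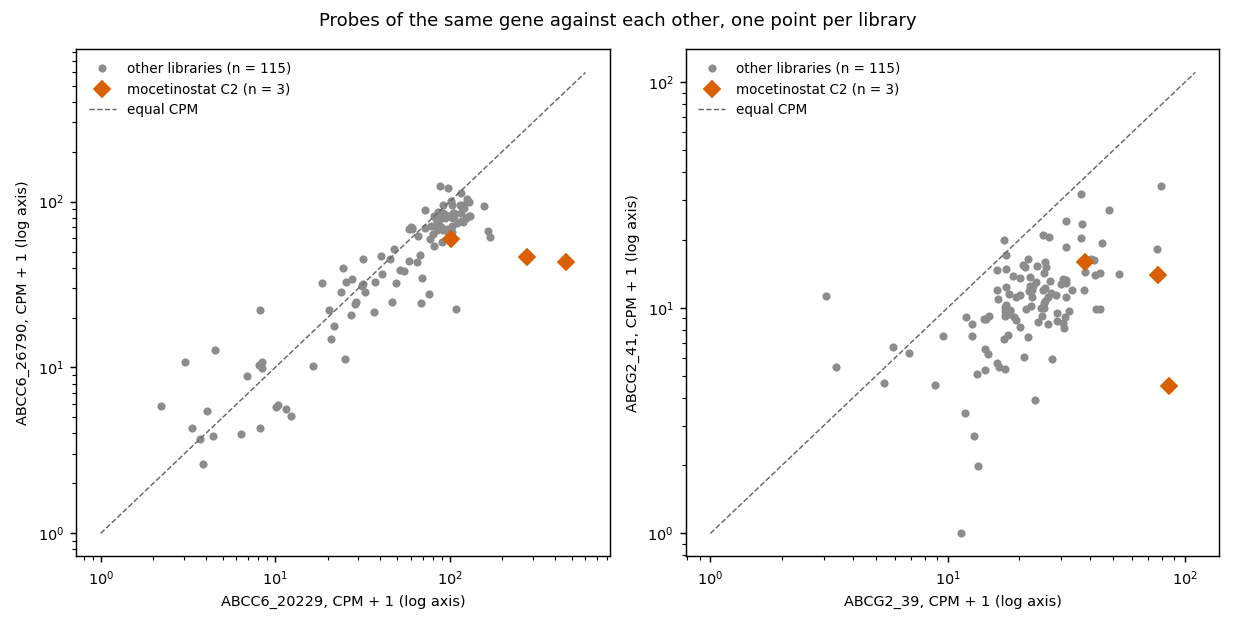
The 2 ABCC6 probes (left) and ABCG2_39 against ABCG2_41 (right), as CPM + 1 on log axes with 1 point per library. Diamonds are the 3 mocetinostat C2 libraries and the dashed line marks equal CPM. ABCC6_20229 reached 462 CPM at mocetinostat C2, and the ABCG2 probes (correlation 0.517) scatter more widely than the ABCC6 probes (0.899).

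ABCB1, the P-glycoprotein gene, was measured at 121 to 251 CPM at C1 and kept between 74.7 and 211 CPM at C5 of the 7 chemicals other than trichostatin A. It was called in only 2 of them. In tacedinaline it went from 202, 165 and 147 CPM to 74.7, 89.1 and 93.7 CPM, a log2 change of -0.91 ± 0.16 (adjusted p = 1.44e-05, edgeR quasi-likelihood test). In vorinostat it went from 175, 177 and 121 CPM to 93.1, 102 and 74.9 CPM, a log2 change of -0.69 ± 0.22 (adjusted p = 0.0078, edgeR quasi-likelihood test). Neither pair of groups overlapped. The vorinostat call was lost without replicate 1 (adjusted p = 0.059) and without replicate 2 (adjusted p = 0.053). The largest of its positive changes was in panobinostat, at 211, 208 and 179 CPM at C5 against 164, 176 and 136 CPM at C1. There the slope over all 5 concentrations corresponded to a log2 change of 0.48 ± 0.15 (adjusted p = 0.022, edgeR quasi-likelihood test), under the minimum fold.

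In the remaining chemicals ABCB1 at C5 differed from C1 by -0.25 ± 0.18 on the log2 scale in apicidin, 0.04 ± 0.22 in mocetinostat, -0.22 ± 0.24 in scriptaid, 0.25 ± 0.17 in trichostatin A and -0.01 ± 0.19 in valproic acid. The change was unequal among the 7 chemicals other than trichostatin A (adjusted p = 0.00078, edgeR quasi-likelihood test). In the same edgeR quasi-likelihood model it was not called unequal among the plate E chemicals (adjusted p = 0.304, unadjusted p = 0.039). Nor was it among the plate H chemicals (adjusted p = 0.463). Fewer chemicals enter these tests, so they cannot show that the changes were equal within plates. In tacedinaline the levels at C3 were 132, 141 and 141 CPM and those at C4 were 120, 103 and 117 CPM, between C1 and C5.

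ABCG2, which exports drugs, urate and porphyrins, was read well by only 2 of its 4 probes. ABCG2_40 held 0 counts in 114 of 118 libraries and at most 4 in any. ABCG2_25072 held 0 in 43 libraries and at most 24, and was tested in scriptaid alone, with a log2 change of -0.79 ± 1.13 at C5. ABCG2_39 stood at 16.3 to 42.7 CPM and ABCG2_41 at 6.29 to 17.7 CPM in the C1 libraries without trichostatin A replicate 3. Over all libraries their correlation on the log2 scale was 0.517.

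ABCG2_39 fell in vorinostat, from 24.6, 21.2 and 24.6 CPM to 4.90, 10.4 and 5.90 CPM, a log2 change of -1.57 ± 0.43 (adjusted p = 0.0026, edgeR quasi-likelihood test). In scriptaid it fell from 30.7, 42.7 and 35.8 CPM to 17.2, 16.5 and 13.8 CPM, a log2 change of -1.13 ± 0.36 (adjusted p = 0.025, edgeR quasi-likelihood test), a call lost without replicate 1 (0.088) or 2 (0.198). C5 lay below C1 in every library of both. ABCG2_41 fell in apicidin, from 14.3, 10.2 and 13.3 CPM to 4.71, 1.71 and 7.46 CPM, a log2 change of -1.43 ± 0.48 (adjusted p = 0.027, edgeR quasi-likelihood test). That call was lost with any 1 replicate left out, at adjusted p of 0.112, 0.111 and 0.061. ABCG2_39 in apicidin, at -0.94 ± 0.41, was called without replicate 1 (-1.07 ± 0.36, adjusted p = 0.030, edgeR quasi-likelihood test). By trend both probes were called in apicidin and vorinostat, and in vorinostat also with a replicate block. The fitted log2 changes were -1.16 ± 0.35 and -1.74 ± 0.40 in apicidin and -1.68 ± 0.36 and -1.68 ± 0.68 in vorinostat for ABCG2_39 and ABCG2_41.

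The ABCG2 probes differed in direction in mocetinostat. ABCG2_39 stood at 24.2, 16.7 and 16.4 CPM at C5 against 21.4, 39.4 and 36.6 CPM at C1, while ABCG2_41 stood at 20.1, 16.2 and 19.1 CPM against 12.7, 15.4 and 11.0 CPM. Neither was called, with log2 changes of -0.68 ± 0.40 and 0.58 ± 0.44. Without replicate 1, ABCG2_39 was called there (-1.18 ± 0.39, adjusted p = 0.048, edgeR quasi-likelihood test). At mocetinostat C2, where the ABCC6 probes read apart, ABCG2_39 stood at 85.1, 76.5 and 36.9 CPM and ABCG2_41 at 3.49, 12.9 and 15.0 CPM. In trichostatin A ABCG2_39 stood at 20.5, 18.5 and 2.39 CPM at C1 and at 24.8, 31.6 and 23.9 CPM at C5, a log2 change of 0.96 ± 0.44 that was not called.

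ABCC1, which exports glutathione conjugates, passed no test of a change at any single concentration. Its 24 C1 libraries held 59.2 to 108 CPM, and the 21 C5 libraries other than trichostatin A held 62.9 to 119 CPM. Its log2 change at C5 ran from -0.28 ± 0.24 in scriptaid to 0.51 ± 0.23 in mocetinostat, with 0 calls in edgeR and 0 rises or falls at any concentration. The mocetinostat slope corresponded to 0.53 ± 0.20 (adjusted p = 0.043, edgeR quasi-likelihood test), under the minimum fold. The change among the 7 chemicals was not called unequal (adjusted p = 0.14, edgeR quasi-likelihood test). In apicidin and scriptaid the C5 libraries of ABCC1 lay just below C1, without a call, and in the other chemicals the groups overlapped.

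ABCC5, an exporter of cyclic nucleotides and nucleotide analogues, held 30.5 to 55.9 CPM at C1 and 21.0 to 52.7 CPM at C5 of the 7 chemicals. The C5 libraries lay below C1 in scriptaid (21.0, 28.4 and 28.2 against 49.6, 34.3 and 50.9 CPM). They did so in tacedinaline (21.3, 29.8 and 26.1 against 39.6, 49.7 and 30.5 CPM). In apicidin they lay above (45.8, 45.2 and 52.7 against 41.3, 32.7 and 38.9 CPM), and in the other chemicals the groups overlapped. The log2 change of ABCC5 at C5 ran from -0.72 ± 0.51 in scriptaid to 0.55 ± 0.28 in trichostatin A. It was not called at any concentration with all libraries. Without the libraries of low correlation, which are all of C4 in scriptaid, its scriptaid change at C5 was called (-0.72 ± 0.24, adjusted p = 0.016, edgeR quasi-likelihood test). Single libraries stood out between those ends. At scriptaid C4 ABCC5 read 49.3, 59.7 and 324 CPM, and at mocetinostat C2 it read 140, 114 and 34.5 CPM. In the 9 libraries of low correlation its median was 73.1 CPM and in the other 109 it was 41.2 CPM. Whether what sets those libraries apart also raised ABCC5 was not tested.

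**Figure D4:**
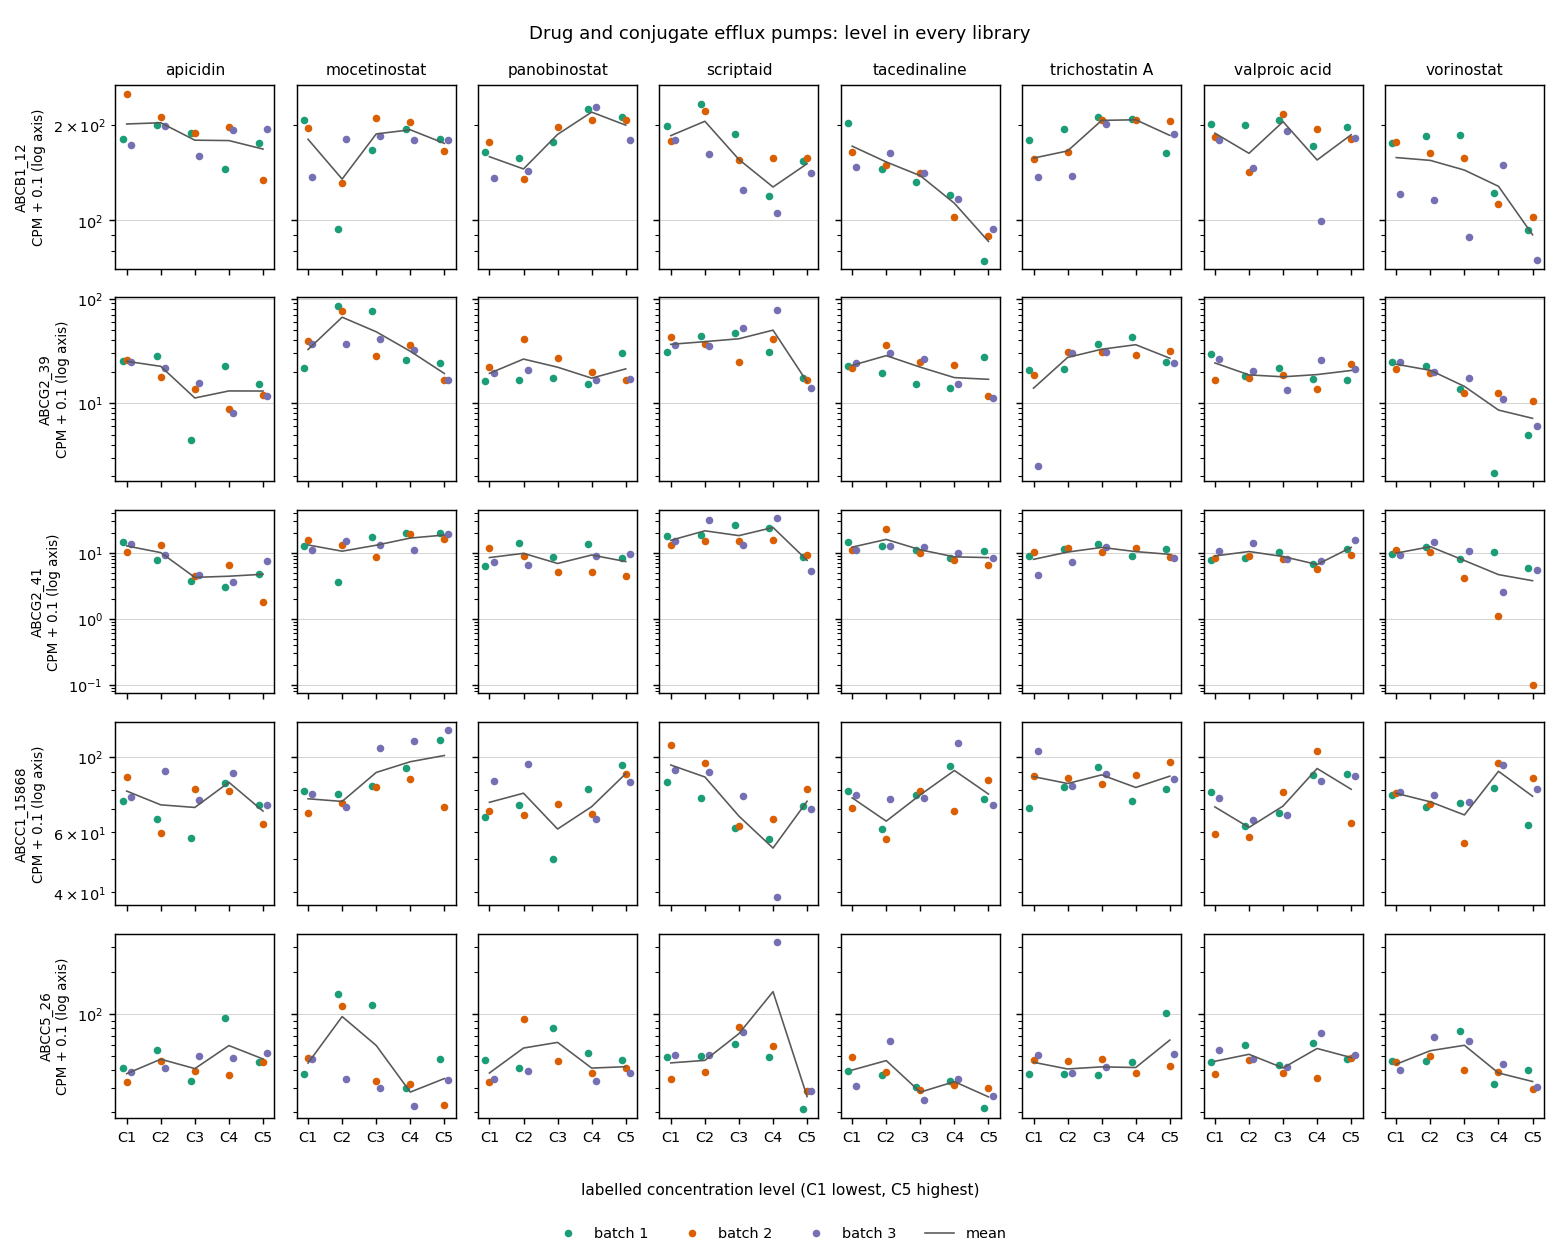
Level of the ABCB1, ABCG2, ABCC1 and ABCC5 probes (rows) in each of the 118 libraries, by concentration level (x axis) and chemical (columns), as CPM + 0.1 on a log axis. Points are coloured by HepaRG batch and the line joins group means. ABCB1 and ABCC1 stay within a narrow band, ABCB1 declines in tacedinaline and vorinostat, and ABCC5 has a single point at 324 CPM in scriptaid C4.

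ABCG1, the remaining sterol exporter, was close to undetected. It held 0 counts in 99 of 118 libraries and at most 7 in any, in trichostatin A C1 replicate 3. The floor of 3 counts corresponds to 0.601 to 2.53 CPM in these libraries, so a level under that could not be measured, and ABCG1 was not tested. It is chiefly known from macrophages and endothelial cells. Fewer cells of a type and less RNA per cell cannot be told apart in bulk lysates, for this or any other member.

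Along the concentrations, 0 member probes were called at C2 in edgeR, with 0 to 3 per chemical at an unadjusted p under 0.05, and few probes of the whole table fell there. They were 0.0315% in apicidin, 0.0383% in mocetinostat, 0.0883% in tacedinaline, 0.0086% in vorinostat and 0% in the other chemicals. At C3 apicidin gave 6 falls (8.39% of all probes), tacedinaline 5 (6.46%) and mocetinostat 4 (5.14%). Vorinostat gave 2 (3.88%), scriptaid 1 (0.876%), valproic acid 1 (0.84%) and panobinostat 0 (0%). ABCG8 was in all of the nonzero counts. At C4 the falls were 6 in apicidin (11.2%) and vorinostat (16.7%), 5 in mocetinostat (11.6%) and tacedinaline (16.4%), 4 in scriptaid (2.67%) and valproic acid (6.35%) and 1 in panobinostat (1.4%). Trichostatin A gave 0 at C3 and C4, where 0% of all probes were called falling.

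The trend over all 5 concentrations gave 41 calls, all falls. They were 8 in vorinostat (23% of all probes fell by trend; 7 with a replicate block, where ABCB1, at -0.56 ± 0.21, fell under the minimum fold), 7 in apicidin (17.2%), 6 in tacedinaline (21.5%) and 5 each in mocetinostat (17.7%), panobinostat (9.35%), scriptaid (6.18%) and valproic acid (7.73%). Trichostatin A gave 0 (0.0462%). ABCA1, ABCG5, ABCG8 and both ABCC6 probes were called by trend in the same 7 chemicals as at C5. The scriptaid count dropped to 2 without replicate 2, and the panobinostat count to 3 without replicate 1.

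The regulators of these genes were taken from a list of 12 nuclear receptors and related factors with 15 probes, of which 14 were tested. At C5 9 probes fell in apicidin, mocetinostat, scriptaid, tacedinaline and vorinostat, 5 in panobinostat and valproic acid and 0 in trichostatin A. The shares of all probes that fell there were 15 to 24.9% in the first 5, then 9.46%, 6.22% and 0.0154%. NR1I3 (CAR) and NR1I2 (PXR), xenobiotic sensors that induce ABCB1 and other transporters, fell in 7 chemicals. In vorinostat NR1I3 went from 80 to 201 counts at C1 to 0 counts in each C5 library, a fall of at least 22.8-fold. In tacedinaline NR1I2 lay at the floor at C5, a fall of at least 13.4-fold. HNF4A, a factor of hepatocyte identity, and NR1H4 (FXR), the bile acid receptor, fell in 6. The only riser was AHR, the dioxin receptor, called in 5 chemicals, with log2 changes between 0.43 and 1.60 over the 8.

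The liver X receptors were looked at for their role, after their values had been seen. NR1H3 (LXR alpha) fell in mocetinostat (-3.99 ± 0.52 on the log2 scale), tacedinaline (-1.69 ± 0.50), vorinostat (-1.23 ± 0.44), scriptaid (-1.20 ± 0.39) and apicidin (-1.13 ± 0.35). In panobinostat and valproic acid, where ABCA1, ABCG5 and ABCG8 were called, NR1H3 was not, at -0.66 ± 0.42 and -0.56 ± 0.34. NR1H2 (LXR beta) was called in no chemical, between -0.49 and 0.41. Their shared partner RXRA fell in 5 chemicals, by 0.68 in apicidin and as far as -2.79 ± 0.50 in scriptaid.

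Of 14 sterol efflux partners and LXR targets, 8 to 10 were tested per chemical, and 2 or 3 fell in each of the 7 chemicals, where 6.22 to 24.9% of all probes fell. In vorinostat 3 of 8 fell against 24.9%, in tacedinaline 3 of 9 against 20.1% and in scriptaid 2 of 10 against 17%. Valproic acid gave 3 of 9 against 6.22% and panobinostat 3 of 9 against 9.46%. Apicidin gave 3 of 10 against 15% and mocetinostat 3 of 10 against 15.7%. Few probes were tested, so these shares are descriptions. APOE and APOA1, the lipid acceptors of ABCA1, fell in all 7, with log2 changes down to -4.22 ± 0.31 for APOE in tacedinaline and -2.76 ± 0.19 for APOA1 in vorinostat. MYLIP, an LXR target that encodes a ubiquitin ligase, went the other way, with rises of 2.35 ± 0.45 in apicidin, 1.80 ± 0.42 in tacedinaline and 1.53 ± 0.54 in scriptaid. NPC1, which releases cholesterol from lysosomes, rose in 3 chemicals and LPCAT3 in 1. Of this list 0 to 2 probes rose in each of the 7 chemicals, where 4.84 to 22.7% of all probes did. The part of the liver X receptors in the members' changes was not tested.

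Of 35 other ABC genes with 48 probes, 27 to 39 probes were tested per chemical. In the 7 chemicals 5 to 14 fell, where 6.22 to 24.9% of all probes did, and 1 to 6 rose, where 4.84 to 22.7% did. In tacedinaline, for example, they were 14 falls and 6 rises among 34 tested, against 20.1% and 18.7% of all probes. In trichostatin A none was called. ABCC2 and ABCC3, the exporters of conjugates into bile and blood, fell in 7 chemicals, with log2 changes between -5.59 and -1.58 for ABCC2 and between -4.87 and -0.69 for ABCC3 over those 7. ABCB11, the bile salt pump, fell in 6 and ABCA6, a liver-expressed transporter, in 7. ABCB9, a lysosomal peptide transporter, was called as a rise in 5 chemicals.

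Over the 40 group means, the levels of the members that fell followed one another. The Pearson correlation of log2 CPM was 0.965 between ABCA1 and ABCC6_20229, 0.941 between ABCA1 and ABCG8 and 0.931 between ABCG5 and ABCG8. All points share libraries, depth and a chemical series, so these are descriptions. The most alike probes were sought among the 11288 tested in all chemicals, without those of the same gene. The probes most like ABCA1 were GJB1 (0.985) and ARHGEF10L (0.982). Those most like ABCG8 were AGXT2 (0.983) and FABP1_11582 (0.981), and those most like ABCG5 were FABP1_2298 (0.958) and HAO2 (0.950). For ABCC6_20229 they were GJB1 (0.977) and PIPOX (0.976), and for ABCC6_26790 SMLR1 (0.980) and TM4SF4 (0.978). The pumps had looser neighbours. ABCB1 was nearest to ZMPSTE24 (0.787) and IL32 (0.775), ABCG2_39 to SYCE3 (0.761) and PABPC1L (0.760), and ABCG2_41 to TOMM34 (0.787) and CENPH (0.734). ABCC5 was nearest to ZC3H4 (0.852) and INO80E (0.799), and ABCC1 to MPG (0.630) and BMP2 (0.617).

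Hepatocyte markers fell in the same chemicals as ABCA1, ABCG5, ABCG8 and ABCC6. All 13 probes of 12 markers were tested in each chemical, and 13 fell at C5 in mocetinostat, scriptaid, tacedinaline and vorinostat, 12 in apicidin, 11 in panobinostat and valproic acid and 0 in trichostatin A. Their summed level lay between 39040 and 71656 CPM in the C1 libraries other than trichostatin A replicate 3, which had 13941 CPM, so liver transcripts were abundant in 23 of the 24 C1 libraries. At C5 the mean sum was 8.01% of that at C1 in tacedinaline, 12.4% in vorinostat, 13.6% in mocetinostat and 16.3% in scriptaid. It was 34.0% in apicidin, 38.1% in valproic acid, 54.8% in panobinostat and 104% in trichostatin A. The 4 chemicals with the smallest sums were the 4 with the largest falls of ABCA1. The part of this in the changes of the members was not tested.

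Of 8 biliary markers 4 or 5 probes were tested, and 1 to 3 rose in each chemical but trichostatin A. There 4.84 to 22.7% of all probes rose. SPP1 and SOX9 each rose in 5 chemicals. KRT19_3690 rose in 1, with log2 changes between -0.97 and 0.96 over the 8. KRT7 and CLDN4 were tested in 1 chemical each and not called, at -1.98 and 3.14. The mean sum of the list was 69.3 to 120 CPM at C1 and 89.6 to 212 CPM at C5. Of the mesenchymal markers COL1A1 rose in 6 chemicals while COL3A1 and ACTA2 fell in 7. DCN fell in 6, trichostatin A among them (-1.65 ± 0.26, adjusted p = 0.035, edgeR quasi-likelihood test). In the 7 chemicals other than trichostatin A, 4.84 to 22.7% of all probes rose and 6.22 to 24.9% fell. In trichostatin A 0.0154% fell. The mean sum of the mesenchymal list at C5 was 56.2 to 76.2% of that at C1. The blood and endothelial markers had 8 probes. Of these, both CDH5 probes, VWF, PTPRC, CD3E and a PECAM1 probe had over 3 counts in 0 of 24 C1 libraries. Of the 8, 1 or 2 per chemical were tested. CD68, a macrophage marker, held 22.1 to 113 CPM at C1 and 8.77 to 51.3 CPM at C5, and it fell in tacedinaline by 1.31 ± 0.30 on the log2 scale (adjusted p = 0.00038, edgeR quasi-likelihood test). The mean sum of this list at C5 was 37.1% of that at C1 in tacedinaline and 46.1 to 76.8% in the others. The mean total count fell from 3038905 at C1 to 1485592 at C5 in vorinostat, from 3646506 to 2325353 in scriptaid and from 2950850 to 2110830 in tacedinaline. The part of other cell types and of depth in the members' changes was not tested.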

How the data were processed

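The authors deposited whole-number read counts per detector probe, without normalisation. Tools named in the submitters' processing notes, with no role or order, are bcl2fastq 2.20.422, fastp 0.23.2, STAR 2.7.10b and DESeq2 1.38.0. The genome build is not given in the sources used here. A row lacking values in 88 libraries was left out. Probe sequences were not used here.

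Each chemical was fitted alone with edgeR 4.0.16 in R 4.3.3 (filterByExpr, TMM, quasi-likelihood F test), with C2 to C5 against C1 and a slope on log2 concentration, scaled to the change from C1 to C5. Errors are SE. p-values were adjusted by Benjamini-Hochberg over all probes tested. A model of 40 group means tested whether the C5 change was equal among chemicals, and among those of each plate. Counts per library (1061359 to 5250260) limit precision at low counts, and bounds use a floor of 3 counts per library. A bound is the mean level at C1 over that at C5 with each floor library set to 3 counts. It covers neither counting error nor the spread between libraries.

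The fit was tested on simulated data. Alternatives were RLE size factors, no filter, a replicate block, DESeq2 1.42.0, adjusted p alone and left-out libraries. Replicate numbers pair the samples because the labels give each number 1 HepaRG batch. The median correlation of deviations was 0.0366 within and -0.0161 between batches. Since all batches are of 1 cell line, p-values measure the spread between batches. Every member probe was described, and at most 4 probes of each list were named, those called in the most chemicals, with exceptions stated, and a result of the sterol list is not reported here. Members and lists were chosen with earlier results of these data known.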

Additional observations from a re-analysis of the deposited data

Results flagged for a closer look

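For 8 of the 11 member probes in the model of all libraries, the change from C1 to C5 was unequal among the 8 chemicals at an adjusted p under 0.05 (edgeR quasi-likelihood F test), where 30.3% of all probes were. The adjusted p was 7.62e-17 for ABCA1, 1.74e-16 for ABCC6_26790, 1.85e-12 for ABCC6_20229 and 2.25e-11 for ABCG8. It was 4.61e-06 for ABCG5, 0.00018 for ABCB1, 0.0045 for ABCG2_39 and 0.023 for ABCG2_41. The C5 changes of ABCA1 ran from -4.58 in vorinostat to 0.34 in trichostatin A on the log2 scale.

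Without trichostatin A, 6 probes remained unequal among the 7 chemicals, where 21.4% of all probes were. The adjusted p was 8.96e-10 for ABCC6_26790, 9.02e-10 for ABCA1, 4.76e-08 for ABCC6_20229 and 1.45e-05 for ABCG8. It was 0.00078 for ABCB1, called in tacedinaline and vorinostat, and 0.034 for ABCG2_41, called in apicidin. For ABCG5 and ABCG2_39 it was 0.405 and 0.174. Among the 3 chemicals of plate E none of the member probes was called unequal, with adjusted p between 0.304 and 1. Of these, 1 (ABCB1) had an unadjusted p under 0.05. ABCG5 and ABCG8 lay at the floor at C5 in all 3, so their plate E tests could not show whether the falls were equal. Among the 4 of plate H, 4 were called unequal (ABCA1, both ABCC6 probes and ABCG8), and ABCG2_41 was not, at 0.069. DESeq2 was not run for these comparisons.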

How the results depend on the processing

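The 40 called changes at C5 were compared with their value under the alternative fits, where 1 fit of a chemical served all of its probes. Of 302 such comparisons, 293 kept direction and call, 9 lost the call and 0 reversed. The 9 all came from leaving out 1 replicate (apicidin ABCG2_41, scriptaid ABCG2_39, vorinostat ABCB1 and valproic acid ABCC6, with values in the report). The replicate block changed none of these calls. With the block the count of calls at C5 was 6 in apicidin, scriptaid and tacedinaline, 5 in mocetinostat, panobinostat and valproic acid, 7 in vorinostat and 0 in trichostatin A, as without it, and the vorinostat trend gave 7 calls in place of 8, without ABCB1. With 1 replicate left out, counts of calls ran from 3 to 5 for the panobinostat trend, 2 to 5 for the scriptaid trend, 0 to 1 for trichostatin A at C5 and 5 to 6 for probes unequal among 8 chemicals (8 with all libraries). Of 41 uncalled changes, 32 comparisons had the other sign, none of them called, and 7 kept the sign and became called. These 7 were ABCG2_39 in apicidin with no filter (-0.94), without replicate 1 (-1.07) and without the libraries of low correlation (-0.94), ABCG2_39 in mocetinostat without replicate 1 (-1.18) and without those libraries (-0.75), ABCC5 in scriptaid without those libraries (-0.72) and ABCG8 in trichostatin A without replicate 3 (-1.27). Log2 changes at C5 in mocetinostat ABCB1 were -0.020 with RLE factors, -0.034 with no filter, -0.020 with DESeq2 and -0.028 without the libraries of low correlation, an alternative chosen after seeing the data. Vorinostat ABCC1 gave -0.00050 with no filter. Without trichostatin A C1 replicate 3, which is also the trichostatin A library of low correlation, ABCG2_41 gave -0.013, ABCG5 -0.19, ABCC6_20229 -0.26 and ABCA1 -0.12. Over left-out replicates, trichostatin A ran from -0.059 to 0.81 for ABCC5, -0.013 to 0.55 for ABCG2_41, -0.20 to 1.76 for ABCG5, -0.062 to 0.17 for ABCC1, -0.46 to 0.87 for ABCC6_20229, -0.21 to 0.80 for ABCA1 and -1.27 to 0.32 for ABCG8. Mocetinostat ran from -0.75 to 0.016 for ABCC5 and -0.14 to 0.15 for ABCB1. Valproic acid ran from -0.025 to 0.22 for ABCC5, -0.56 to 0.069 for ABCG2_39 and -0.030 to 0.0062 for ABCB1. Panobinostat ran from -0.33 to 0.41 for ABCG2_39 and -0.53 to 0.37 for ABCG2_41. Apicidin ABCB1 ran from -0.47 to 0.071, tacedinaline ABCC1 from -0.011 to 0.17 and vorinostat ABCC1 from -0.0091 to 0.16. The causes were not tested. Depth limits the fall of ABCG5 and ABCG8 to a lower bound at C5, and ABCG1 and 2 ABCG2 probes were too low to test in most or all chemicals.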
